A study of Mus musculus with 2 samples.

Results

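The mitochondrial carriers of solute carrier family 25 were taken as every gene probe whose name in the array files was Slc25a followed by a number, which gave 53 probes for 32 genes of 28783 named genes on the array. Of these 32 genes, 18 had 1 probe, 7 had 2 and 7 had 3. RNA came from RAW 264.7, a mouse macrophage-like cell line that can form osteoclast-like cells when given the cytokine RANKL. There was 1 Agilent array of cells labelled control, kept at ground level, and 1 of cells labelled RCCS, loaded for 24 h into a rotary cell culture system that models microgravity. The protocol text, which is the same for both samples, has RANKL given at 80 ng/ml for 24 h and leaves it unclear whether the control cells received it. Neither sample carries a named genotype, transgene or second agent, and both are cultures of the same line.

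Carriers of this family sit mainly in the inner mitochondrial membrane, which is closed to most metabolites, and move nucleotides, phosphate, carboxylates, amino acids, cofactors and iron between the cytosol and the matrix. Each is a small protein of membrane-spanning helices that reaches the inner membrane through the TOM and TIM22 import complexes. In macrophages and osteoclasts, which depend on mitochondria as they change state, the citrate and aspartate-glutamate carriers link the matrix to cytosolic lipid synthesis and redox balance, and the mitoferrins supply iron for heme and iron-sulfur clusters.

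With 1 array per condition no test between the conditions could be made, and no difference reported here has a replicate check. A value is a log2 ratio of RCCS over control after the processed signal of each array was divided by its own 75th percentile, which was 849 (control) and 966 (RCCS). A probe counted as measured where the scanner software called it well above background on both arrays, and the value of a gene is the mean over its measured probes. The spot error assigned by that software gave each member a 95% half-width of 0.23 to 0.64 (median 0.40), which covers neither cultures nor RNA extraction. Brightness of different probes does not rank RNA levels, so signals are compared only between the arrays for the same probe. Signals are printed before division by the 75th percentile, whereas log2 ratios are taken after it. A signal can therefore be higher on the RCCS array while its log2 ratio is below 0. In RNA of a whole culture, fewer cells of a kind and less RNA per cell cannot be told apart. Of the markers of the labelled cell type, 8 of 8 macrophage genes were measured on both arrays. Their best-probe signals, not scaled, summed to 773882 (control) and 934268 (RCCS). The highest best-probe signal alone was 486442 (control) and 547485 (RCCS). Of the other types checked, 2 of 4 epithelial markers were measured on both arrays (sum 160 and 102), 1 of 4 fibroblast markers (168 and 165) and 4 of 4 lymphocyte markers (447 and 444). Of the brown adipocyte markers 1 of 4, Pparg, was measured on both arrays (sum over all 4 588 and 354). Each sum runs over all markers of a type, measured or not. The sums come from different probes and are not compared between cell types. Because they are not scaled and the RCCS array had the higher 75th percentile, they are not compared between the arrays either.

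Upstream sequence is shown for the carriers the results turn on that have an entry in the promoter table (RefSeq, build GRCm38.p6), which was matched by symbol and held 25 of the 32 genes. Slc25a35 and Slc25a37 have no entry there. The windows are the 250 bases before an annotated start, written 5′ to 3′ in the direction of the gene. Slc25a34, the member with the lowest ratio, lies at chr4:141623835-141624084 on the minus strand. Slc25a1 and Slc25a10, which carry citrate and dicarboxylates and had ratios close to each other, lie at chr16:17928220-17928469 on the minus strand and chr11:120491587-120491836 on the plus strand. Slc25a28, the mitoferrin whose ratio was opposite in sign to that of Slc25a37, lies at chr19:43674882-43675131 on the minus strand. Slc25a25, which was lower with 3 of 3 probes while its paralog Slc25a24 was higher, has 3 annotated starts, all on the minus strand, with windows A at chr2:32424067-32424316, B at chr2:32431152-32431401 and C at chr2:32451471-32451720. Capitals mark matches on either strand to the motifs named after the sequences.
Slc25a34: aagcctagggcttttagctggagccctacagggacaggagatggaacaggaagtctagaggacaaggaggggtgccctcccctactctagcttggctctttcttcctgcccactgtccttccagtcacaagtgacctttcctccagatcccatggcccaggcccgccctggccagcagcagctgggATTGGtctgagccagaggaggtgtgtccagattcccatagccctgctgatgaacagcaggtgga
Slc25a1: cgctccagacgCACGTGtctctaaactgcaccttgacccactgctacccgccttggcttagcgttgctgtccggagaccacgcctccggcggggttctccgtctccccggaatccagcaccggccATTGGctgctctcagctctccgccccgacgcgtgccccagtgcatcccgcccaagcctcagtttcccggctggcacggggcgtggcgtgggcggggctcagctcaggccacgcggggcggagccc
Slc25a10: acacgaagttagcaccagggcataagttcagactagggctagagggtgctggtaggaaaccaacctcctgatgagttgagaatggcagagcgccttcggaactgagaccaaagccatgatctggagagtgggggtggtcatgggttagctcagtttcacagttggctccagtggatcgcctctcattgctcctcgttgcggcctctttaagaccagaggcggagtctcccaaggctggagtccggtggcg
Slc25a28: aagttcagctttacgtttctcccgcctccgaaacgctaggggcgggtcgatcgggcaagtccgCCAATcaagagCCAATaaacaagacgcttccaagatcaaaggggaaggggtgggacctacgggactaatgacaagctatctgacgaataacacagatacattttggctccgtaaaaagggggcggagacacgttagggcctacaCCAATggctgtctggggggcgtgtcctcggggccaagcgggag
Slc25a25 A: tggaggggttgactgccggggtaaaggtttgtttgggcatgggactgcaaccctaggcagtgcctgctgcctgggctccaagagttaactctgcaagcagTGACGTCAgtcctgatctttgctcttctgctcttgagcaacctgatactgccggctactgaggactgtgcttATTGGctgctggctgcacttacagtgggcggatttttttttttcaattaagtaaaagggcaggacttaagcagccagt
Slc25a25 B: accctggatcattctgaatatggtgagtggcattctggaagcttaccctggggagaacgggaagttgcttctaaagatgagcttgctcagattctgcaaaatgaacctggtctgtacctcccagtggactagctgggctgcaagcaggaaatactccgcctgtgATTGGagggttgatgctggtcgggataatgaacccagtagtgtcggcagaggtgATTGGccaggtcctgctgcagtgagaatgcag
Slc25a25 C: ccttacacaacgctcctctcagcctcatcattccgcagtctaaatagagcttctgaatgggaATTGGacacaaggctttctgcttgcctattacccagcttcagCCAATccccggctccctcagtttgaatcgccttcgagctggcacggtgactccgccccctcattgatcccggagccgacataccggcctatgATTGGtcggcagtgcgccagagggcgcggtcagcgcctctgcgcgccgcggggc

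The motifs were the E-box CACGTG, the cyclic AMP response element TGACGTCA, the ETS and GABP core CCGGAAG, the NRF1 motif and the CCAAT box; none of these contains another. Of the windows shown, Slc25a1 held an E-box and a CCAAT box, window A of Slc25a25 held a cyclic AMP response element and a CCAAT box, and Slc25a10 held no match. Measured members had 30 windows in the table, some of them overlapping. The E-box stood in 6 of these (20%) against 6.02% of 32851 windows of the same length. Overlapping windows of Slc25a14 share the same E-box, so that site was counted more than once. By gene the E-box stood in 5 of 22 measured members (22.7%) against 6.86% of 27025 genes. Its genes were Slc25a1, Slc25a13 and Slc25a15, with ratios below 0, and Slc25a14 and Slc25a36, with ratios above 0. Of the 30 windows, the CCAAT box stood in 15 (50%) against 33.8% of all windows, and the ETS and GABP core in 4 (13.3%) against 6.91%. The cyclic AMP response element stood in 2 (6.67%) against 1.55%, and the NRF1 motif in 0 against 0.782%. The windows of the 25 members with an entry, measured or not, had a median GC content of 57% and all windows 52.4%. The motif shares of all windows and genes include genes not measured here, and the share over measured genes alone was not computed. The motif counts are letter matches in a window of reference sequence and nothing was measured there.

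**Figure D1:**
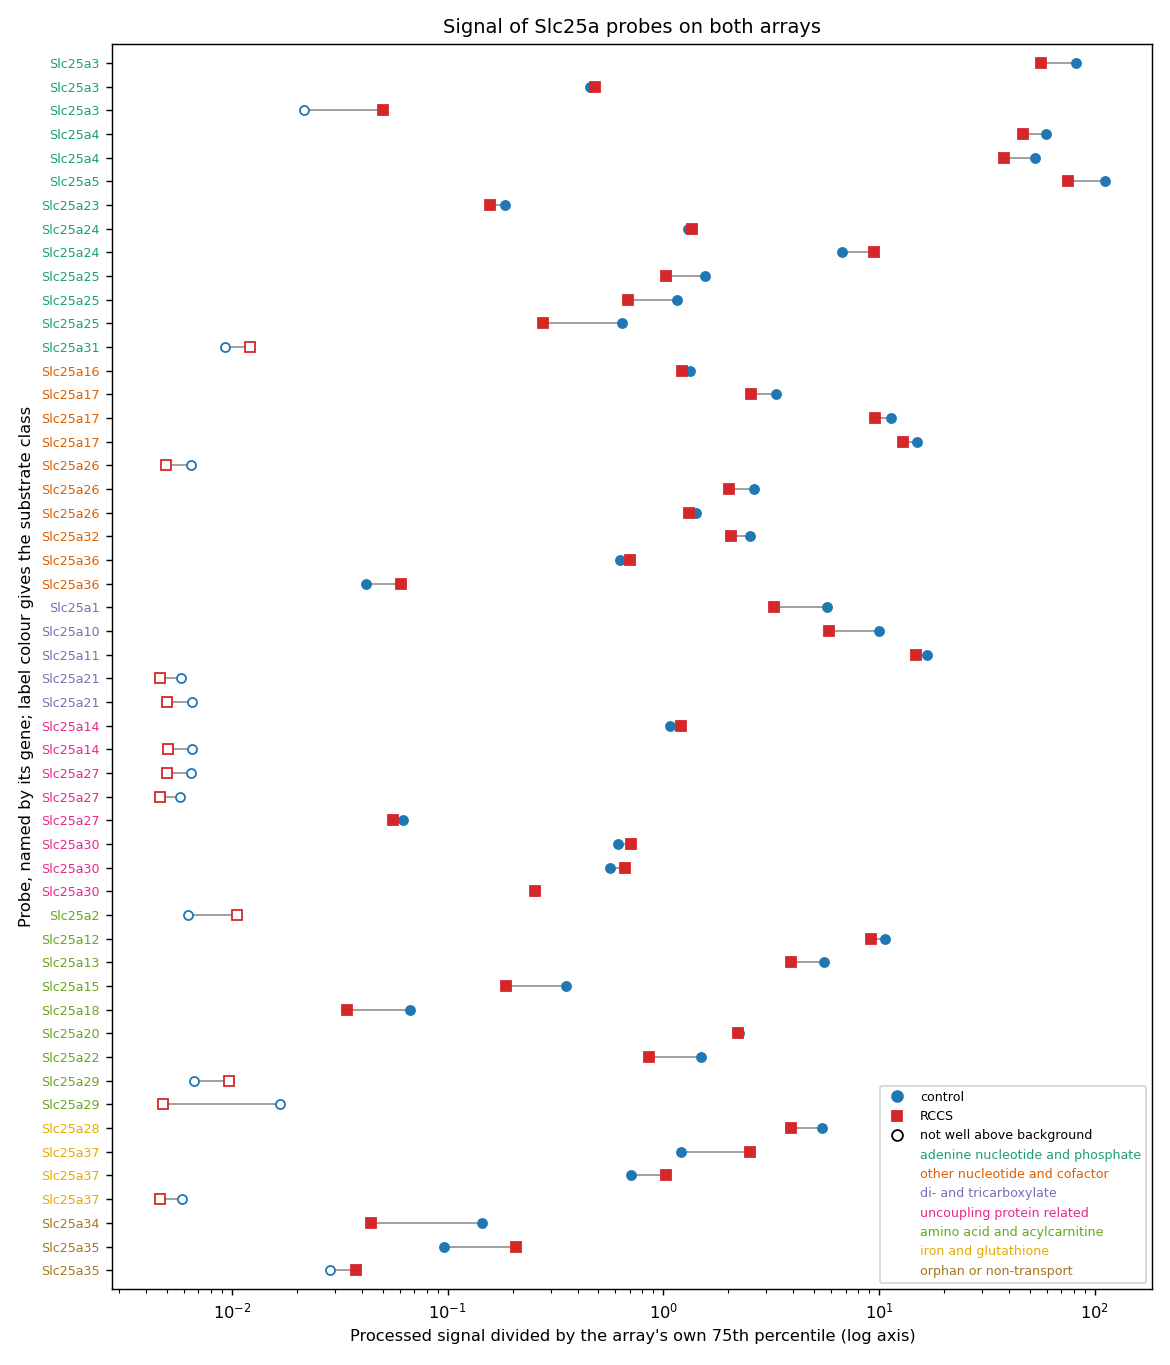
Processed signal of 52 of the 53 Slc25a probes, divided by the 75th percentile of its array (log axis), on the control array (blue circles) and the RCCS array (red squares); open symbols were not well above background. The brightest probes of Slc25a3, Slc25a4 and Slc25a5 are lower on the RCCS array, the probe of Slc25a34 is dim and far lower there, and the probes of Slc25a37 that are above background are higher there.

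Of the 32 genes, 28 were measured on both arrays, where 55.7% of all named genes were. The other 4 had no probe well above background on either array: the ornithine carrier Slc25a2, the oxodicarboxylate carrier Slc25a21, the basic amino acid carrier Slc25a29 and the testis ADP/ATP carrier Slc25a31, whose signals were at most 14.1, where the lowest probe called well above background had 23.9 (control) and 19.9 (RCCS). By probe, 40 of 53 were well above background on both arrays, 2 on the RCCS array only, 0 on the control array only and 11 on neither. The 2 on the RCCS array only belong to Slc25a3 and Slc25a35, which other probes measured on both.

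As a family the carriers lay slightly toward the control side, with few members beyond 2-fold. Slc25a35 was the 1 member at least 2-fold higher on the RCCS array (1 of 28, where 3.88% of 16023 measured genes were at least 2-fold higher), and Slc25a34 the 1 member at least 2-fold lower (where 3.78% of measured genes were). Both shares are near the background. The median log2 ratio was -0.27 (quartiles -0.62 and -0.09) against -0.13 over all measured genes (quartiles -0.42 and 0.19), a difference of -0.14 that ran from -0.21 to -0.04 over the other processing settings. Settings that shift every gene alike, such as spike-in scaling, cannot move that difference. Log2 ratios were below 0 for 22 of 28 members, where 61.8% of all genes were, and below the all-gene median for 20, where 50% were. At 1.5-fold, 7 members were lower (25%, against 14.8% of all genes) and 2 were higher (7.14%, against 9.74%). Scaling the arrays on spike-in probes moved the median of all genes up by 0.31, to 0.18, and the family median to 0.04. With that scaling 12 members were below 0 and 16 above, where 34.1% of all genes were below 0. At least 2-fold higher were 2 members (7.495% of all genes), and at least 2-fold lower was 1 (1.63% of all genes).

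**Figure D2:**
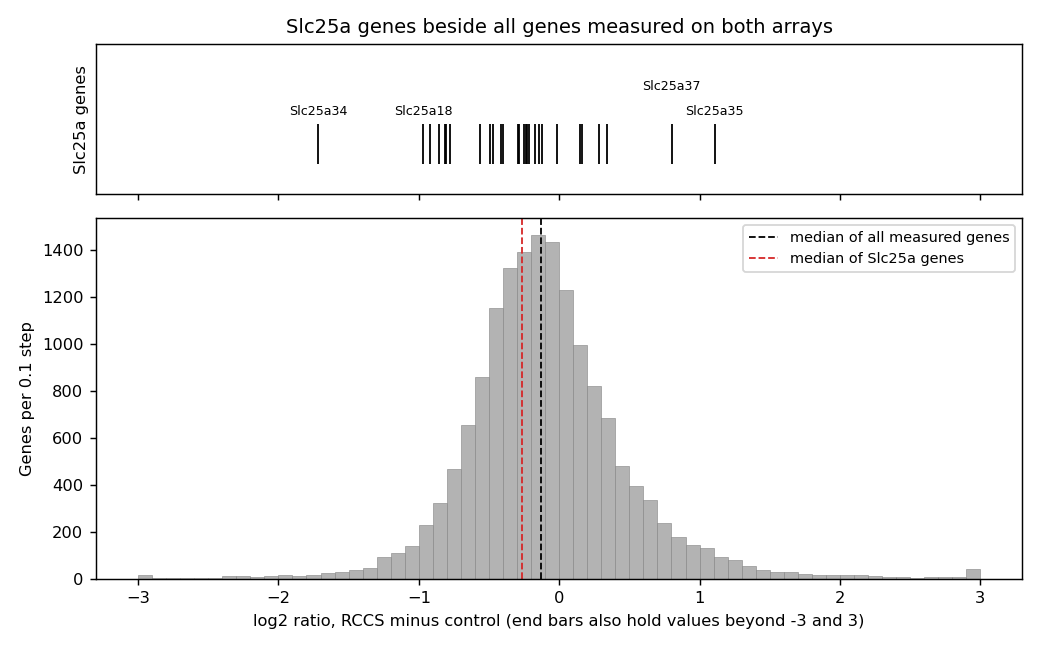
Upper panel: each of the 28 measured Slc25a genes as a tick at its log2 ratio, RCCS minus control. Lower panel: number of all 16023 measured genes in steps of 0.1 on the same axis, with the all-gene median (black dashed line, -0.13) and the Slc25a median (red dashed line, -0.27); most ticks lie within the bulk of all genes, and Slc25a34 lies apart at the low end.

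Set against the all-gene median, 9 members were lower by more than their own 95% spot-error half-width, 5 were higher by more than it and 14 lay within it. The share of all measured genes that pass the same rule was not computed, so these counts have no background beside them. The half-width is also narrower for genes with more measured probes. Slc25a30, at 0.28 with 3 probes and a half-width of 0.23, was counted. Slc25a14, at 0.29 with 1 measured probe and a half-width of 0.40, was not. The 9 were Slc25a1, Slc25a4, Slc25a5, Slc25a10, Slc25a15, Slc25a18, Slc25a22, Slc25a25 and Slc25a34. The 5 were Slc25a24, Slc25a30, Slc25a35, Slc25a36 and Slc25a37. The measured spread of 116 bright probes that were printed repeatedly on the arrays was smaller, with a median SD of the log2 ratio of 0.04. In 9 genes more than 1 probe was measured, and in 3 of them the probes lay over 0.5 apart, in 0 over 1 apart.

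The carriers of adenine nucleotides and phosphate feed oxidative phosphorylation. Slc25a5, the ADP/ATP carrier of dividing cells, went from a processed signal of 94865 (control) to 72946 (RCCS), a log2 ratio of -0.56 (1.48-fold lower). Slc25a4, the ADP/ATP carrier best known from heart and muscle, had 50643 and 44848 on its brighter probe and 44816 and 36735 on the other, and a ratio of -0.42. Slc25a3 imports the phosphate used for ATP synthesis. Its bright probe went from 69746 to 54407 (-0.54), a dimmer probe from 388 to 463 (0.07), and the last, not well above background on the control array, from 18.4 to 48.6. The bright probe is named for a RefSeq transcript and both dimmer ones for a cDNA clone. The gene mean of Slc25a3, -0.24, therefore joins probes that went in different directions. It was 0.25 without a filter on dim probes and 0.07 with spike-in scaling. With the brightest probe or with probes of RefSeq accessions only it was -0.54. The bright probes of all 3 genes were lower on the RCCS array. With loess scaling Slc25a5 was at -0.19, Slc25a4 at -0.07 and Slc25a3 at -0.05.

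The calcium-regulated ATP-Mg/phosphate carriers, which set the size of the adenine nucleotide pool in the matrix, did not share a direction. Slc25a25 was lower on the RCCS array with all 3 probes, from 1324 to 998 (-0.59), from 984 to 664 (-0.75) and from 548 to 266 (-1.23), for a mean of -0.86 (1.81-fold lower). Slc25a24 was higher with both probes, from 5708 to 9151 (0.50) and from 1101 to 1312 (0.07), for a mean of 0.28. The ratio of Slc25a24 was above 0 and that of Slc25a25 below 0 in all 13 other settings. The difference between their log2 ratios was 1.14 with a 95% spot-error half-width of 0.37, and 1.04 to 1.27 over those settings. Slc25a23, the dimmest of the 3 at 157 and 152, was at -0.23, and at 0.08 with spike-in scaling. The class as a whole, with 6 measured genes, had 5 below 0 (61.8% of all genes), a median of -0.33 and 0 beyond 2-fold.

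The carriers of citrate and dicarboxylates were among the lowest. Slc25a1 exports the citrate that the cytosol turns into acetyl-CoA for fatty acid and sterol synthesis; its probe went from 4861 to 3153, a log2 ratio of -0.81 (1.75-fold lower). Slc25a10, the dicarboxylate carrier that exchanges malate and succinate for phosphate, went from 8507 to 5651 (-0.78, 1.71-fold lower). Slc25a11, the oxoglutarate-malate carrier of the malate-aspartate shuttle, had 14189 and 14347 and stood at -0.17, with values above 0 in 4 of 13 settings. Set against Slc25a11, the log2 ratio of Slc25a1 differed by -0.64 and that of Slc25a10 by -0.61, each with a half-width of 0.57. The 3 genes had a median of -0.78, which was -0.65 when set against all genes and stayed between -0.65 and -0.31 on that scale under the other settings. Slc25a1 and Slc25a10 were below 0 in all 13 of them. Each has 1 probe, so the settings that only choose among probes or spots returned the reported value.

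**Figure D3:**
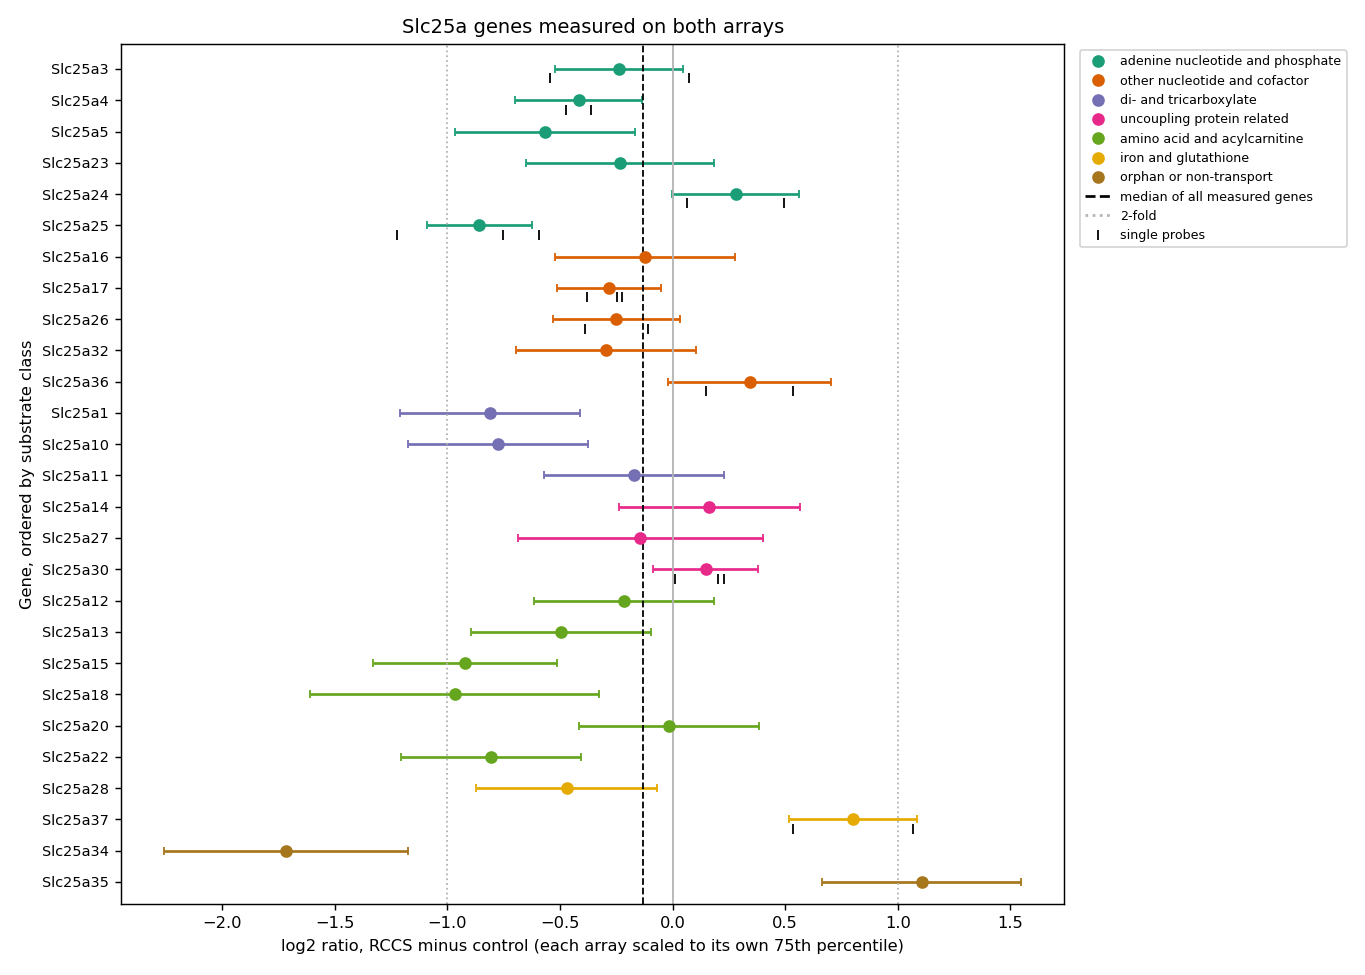
Log2 ratio, RCCS minus control, of 27 of the 28 measured Slc25a genes, ordered and coloured by substrate class, with 95% half-widths from the software's spot error (bars) and single measured probes where a gene has several (ticks). Dotted lines mark 2-fold and the dashed line the median of all measured genes. The 3 di- and tricarboxylate carriers and the 6 amino acid and acylcarnitine carriers lie below 0, where 61.8% of all genes do. With spike-in scaling 2 and 4 of them do so, where 34.1% of all genes do.

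Amino acid and acylcarnitine carriers were below 0 in 6 of 6 measured (61.8% of all genes), and in 4 of 6 with spike-in, loess or quantile scaling. Of all genes, 34.1% were below 0 with spike-in scaling, 50.4% with loess scaling and 55.6% with quantile normalization. The class median was -0.65 (-0.52 against all genes, and between -0.53 and -0.27 over the other settings). The lowest was Slc25a18, a mitochondrial glutamate carrier, at -0.97, but its probe was dim, at 56.7 (control) and 33.0 (RCCS). The value came to -0.32 after normexp background correction with quantile normalization and to -1.22 in the deposited ratio table. Slc25a22, the other glutamate carrier, was brighter, with 1273 and 828, and stood at -0.81. Slc25a15, which exchanges ornithine for citrulline in the urea cycle, went from 300 to 180 (-0.92, 1.89-fold lower). These 3 were below 0 in every setting run for them. Each has 1 probe, so the settings that only choose among probes or spots returned the reported value or none. The aspartate-glutamate carriers of the malate-aspartate shuttle had smaller ratios. Slc25a13 (citrin) went from 4699 to 3790 (-0.50). Slc25a12 (aralar) had 9011 and 8833 and stood at -0.21, with values above 0 in 4 of 13 settings. Slc25a20, which brings acylcarnitines into the matrix for fatty acid oxidation, was nearly level at 1902 and 2142 (-0.01) and was above 0 in 6 of 13 settings.

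The mitoferrins, paralogs that bring iron into the matrix, went in opposite directions. Slc25a37 (mitoferrin 1), the form needed by developing red cells, went from 1022 to 2436 on its brighter probe (1.07) and from 603 to 994 on the other (0.54). The remaining probe was at background on both arrays, with 4.97 and 4.48. Its mean ratio of 0.80 (1.74-fold higher) lay above that of 94.1% of all measured genes. Slc25a37 was above 0 in all 13 other settings, past 2-fold with spike-in scaling (1.11) and with the brightest probe (1.07), and lowest at 0.42 where the background probe was averaged in. Slc25a28 (mitoferrin 2), the broadly expressed form, went from 4594 to 3770 (-0.47) and was below 0 in all 13. It has 1 probe, so the settings that only choose among probes or spots returned the reported value. The log2 ratios of the mitoferrins differed by 1.27 with a 95% spot-error half-width of 0.49, and by 0.89 to 1.54 over the settings.

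Carriers of other nucleotides and cofactors stayed within 1.5-fold. Of 6 measured, 5 were below 0 (61.8% of all genes), with a median of -0.27. Slc25a17, which carries coenzyme A, FAD and NAD+ across the peroxisomal membrane, had 3 probes at -0.38, -0.25 and -0.22. Slc25a32, which serves folate and FAD, was at -0.29 (2146 and 1989), and Slc25a26, which imports S-adenosylmethionine for methylation in the matrix, at -0.25 (probes at -0.39 and -0.11, and another at background). Slc25a16, linked to coenzyme A in mitochondria, was at -0.12 (1127 and 1178). These 4 were above 0 with spike-in scaling, and Slc25a16 also in 1 more setting. Slc25a36, a pyrimidine nucleotide carrier, was the 1 member of this class above 0, at 0.34. Its brighter probe went from 536 to 675 (0.15) and its dim probe from 35.5 to 58.6 (0.54), and normexp correction brought the mean to 0.07.

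Of the 3 carriers related to uncoupling proteins, 2 lay above 0. Slc25a30 was above 0 with 3 of 3 probes, from 524 to 686 (0.20), from 480 to 640 (0.23) and from 215 to 246 (0.01), for a mean of 0.15. Slc25a14 went from 911 to 1161 on the probe that was measured (0.16); a second probe was at background on both arrays, and with it averaged in the gene came to -0.10. Slc25a27 (UCP4), best known from neurons, was measured by 1 of 3 probes, at 52.5 and 54.1 (-0.14). The class median was 0.15 (0.28 against all genes) and came to -0.10 without a filter on dim probes; none of the 3 lay beyond 1.5-fold.

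The members furthest from 0 in each direction were both orphans, carriers with no settled substrate, and both rest on dim probes. Slc25a34 went from 123 to 42.5, a log2 ratio of -1.72 (3.29-fold lower) below which lay 0.724% of measured genes. Its 1 probe is named for a cDNA clone and not for a RefSeq transcript. The value was -0.88 with normexp correction and -0.82 with normexp and quantile normalization, and stayed past 2-fold in 10 of the 12 settings that could give it. Slc25a35 went from 81.7 to 200.2, a log2 ratio of 1.11 (2.15-fold higher). A second probe went from 24.2, not well above background, to 36.4. The gene was at 0.72 and 0.75 with normexp correction and at 0.76 with both probes averaged, and was past 2-fold in 10 of 13 settings.

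**Figure D4:**
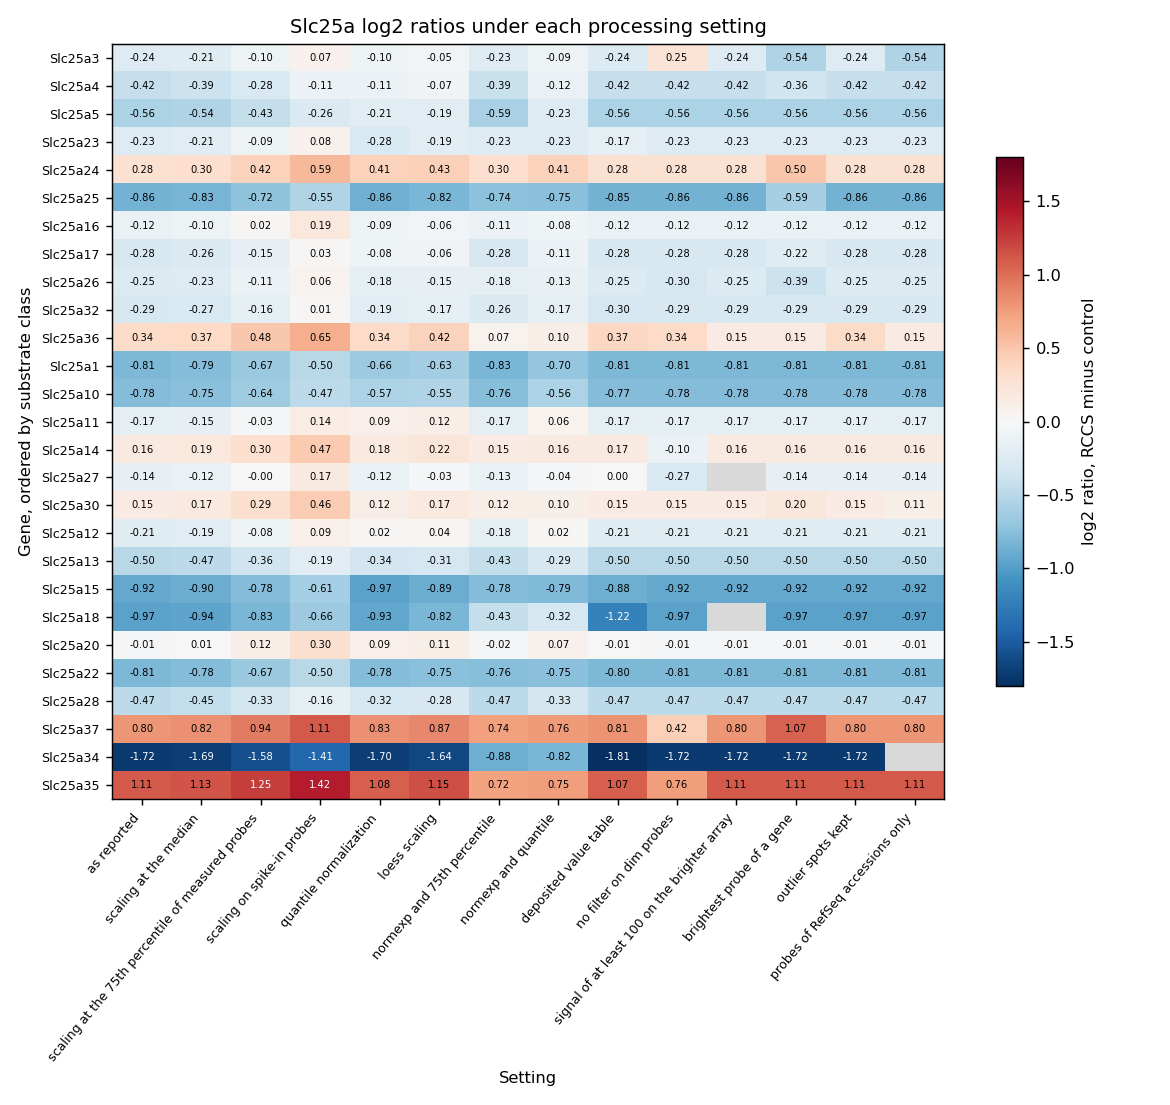
Log2 ratio, RCCS minus control, of 27 of the 28 measured Slc25a genes (rows, ordered by substrate class) under each processing setting (columns; grey, no value). Slc25a1, Slc25a10, Slc25a15, Slc25a22 and Slc25a25 stay below 0 and Slc25a24, Slc25a35 and Slc25a37 above 0 across the columns, and Slc25a3, Slc25a11, Slc25a12 and Slc25a20 are among those with both signs.

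Some carriers of the family appear on the array under older names and so fall outside the naming rule. Through accessions, 12 more Slc25a genes were found, and Ucp1, Ucp2, Ucp3, Mtch1 and Mtch2 belong to the family under names of their own. Of these 17 genes 13 were measured. Below 0 were 10 of them (61.8% of all genes), and below the all-gene median 8 (50% of all genes). With 0 beyond 2-fold, their median was -0.29, which turned to 0.02 with spike-in scaling, where the all-gene median was 0.18. Slc25a41, Slc25a48, Ucp1 and Ucp3 were not well above background on either array. Ucp2, the uncoupling protein of macrophages, had 30402 and 31138 on its brightest probe (-0.15) and 19996 and 19212 on another bright probe (-0.24). A dim probe, at 46.0 and 64.5, was at 0.30. The mean of the 3 probes was -0.03, and it was above 0 in 6 of 13 settings. It was -0.20 with only probes of a signal of at least 100.

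By class, these carriers added members on both sides. The glutathione carriers Slc25a39 and Slc25a40 were at -0.37 and -0.64, which left Slc25a37 the 1 gene above 0 among 4 in the iron and glutathione class. Slc25a38, which serves glycine to heme synthesis, was at -0.70 (from 2701 to 1890). Slc25a44, a branched-chain amino acid carrier, was the 1 of 8 measured amino acid and acylcarnitine carriers above 0, at 0.21. Cofactor and nucleotide carriers included Slc25a42, for coenzyme A, at -0.72 but dim (59.5 and 40.9), Slc25a51, for NAD+, at -0.38, and Slc25a33, for pyrimidine nucleotides, at -0.29. The highest of the 13 was the orphan Slc25a45 at 0.50 (from 2310 to 3705), and the lowest was Slc25a47, best known from liver, at -0.77 (146 and 97.3). Slc25a46, an outer membrane protein of mitochondrial dynamics, was at 0.04 with probes at -0.25 and 0.32. Mtch1 and Mtch2, which act in the outer membrane, were at -0.25 and -0.12, each above 0 in 4 of 13 settings. Slc25a33 was above 0 in 1 setting (0.02, spike-in scaling); Slc25a38, Slc25a39, Slc25a40, Slc25a42, Slc25a47 and Slc25a51 were below 0 and Slc25a44, Slc25a45 and Slc25a46 above 0 in every setting run for them.

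The machinery that brings carriers into the inner membrane had log2 ratios below 0 in 13 of 13 genes measured (61.8% of all genes), and in 8 of 13 with spike-in scaling (34.1% of all genes). Of the 13, 1 was at least 2-fold lower, where 3.78% of all genes were. Their median was -0.50 (-0.37 against all genes). It was below 0 in all 13 other settings, from -0.51 to -0.19. Tomm40, the channel of the outer membrane, was at -1.02 (from 11751 to 6102 on its brightest probe) and came to -0.71 with spike-in scaling. Tomm20, a receptor of the same complex, was at -0.76, Agk, a subunit of the TIM22 complex, at -0.72, and Timm8a1, a chaperone of the intermembrane space, at -0.66. Other transporters of the mitochondrial membranes were nearer to the background, with 13 of 18 below 0, 0 beyond 2-fold and a median of -0.20 that was above 0 in 4 of 13 settings. The lowest of them were the ABC transporter Abcb8 and the calcium uniporter Mcu, both at -0.78, and the sideroflexins Sfxn5 (-0.70) and Sfxn2 (-0.65). Abcb8 came to 0.23 without a filter on dim probes.

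Enzymes that use what the carriers move were mostly on the same side as the carriers, and so were most measured genes. Of all measured genes 61.8% were below 0, and 34.1% with spike-in scaling. Below the all-gene median (50% of all genes) were 8 of 12 citrate, malate and aspartate enzymes and 9 of 12 heme and iron-sulfur enzymes. The carnitine and fatty acid list and the folate and nucleotide list each had 7 of 10 below it. Among enzymes of citrate, malate and aspartate metabolism 11 of 12 were below 0 (8 with spike-in scaling), with a median of -0.38 and 0 beyond 2-fold. Idh2, Idh3a and Got1 were at -0.90, -0.64 and -0.62, and the NADPH-producing malic enzyme Me1 at 0.71. Among heme and iron-sulfur enzymes 10 of 12 were below 0 (7 with spike-in scaling), with a median of -0.36. Alad was at -0.66 and Cpox at -0.61, both of them enzymes of heme synthesis, whereas Alas1, the first enzyme of heme synthesis, was at 0.50. Among enzymes of carnitine transfer and fatty acid oxidation 7 of 10 were below 0 (4 with spike-in scaling), with a median of -0.24 that was above 0 in 3 of 13 settings. Cpt1a, which makes the acylcarnitines that Slc25a20 carries, was at 1.52 (from 1021 to 3574 on its brighter probe) and past 2-fold in all 13 settings. Crat was at 0.62 and Hadhb at -0.44, and the probes of Hadha, at -0.15 and 1.24, gave 0.55. Among enzymes of mitochondrial folate and nucleotide metabolism 8 of 10 were below 0 (5 with spike-in scaling) and the median was -0.50. At least 2-fold lower were 3 of the 10, against 3.78% of all genes, and 1 with spike-in scaling, against 1.63%. Cmpk2, a mitochondrial nucleotide kinase induced by interferon, was at -3.01, the folate enzymes Mthfd2 and Shmt2 at -1.30 and -1.04, and the helicase Twnk at -0.92. Mthfd2 came to -0.99 and Shmt2 to -0.74 with spike-in scaling. The medians of the citrate, heme and folate lists were below 0 in all 13 settings, with highest values of -0.04, -0.05 and -0.19.

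**Figure D5:**
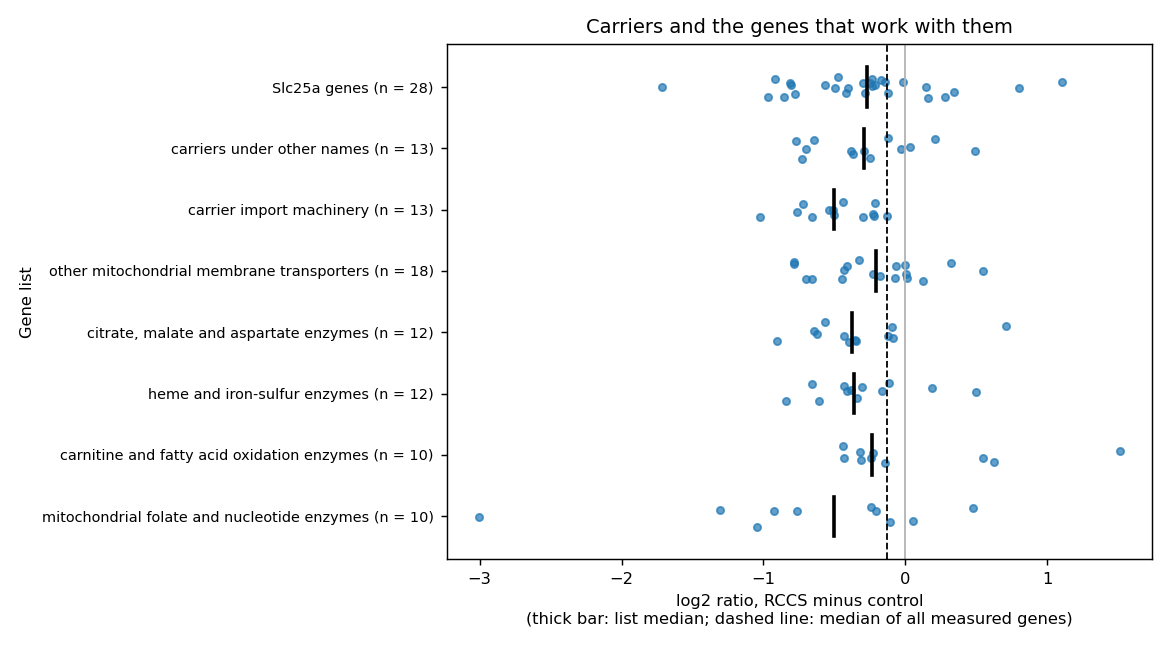
Log2 ratio, RCCS minus control, of each measured gene (points, shifted at random in height) in the Slc25a family, in the carriers under other names and in 6 lists of genes that work with them; thick bars are list medians and the dashed line the median of all measured genes. The median of the import machinery (-0.50) lies below that of the carriers (-0.27). Its 13 points lie below 0 (61.8% of all genes), where 8 do with spike-in scaling (34.1% of all genes).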

How the data were processed

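RNA of RAW 264.7 cells was measured on 2 one-colour Agilent arrays, control and RCCS, which lay on 1 slide and were scanned together per the file headers. The deposited intensities come from Agilent Feature Extraction 9.5.3.1 per the file headers, with background subtracted, surface trend removed and no scaling between arrays. The authors also deposited a ratio table, 1 column per array, whose values matched these intensities divided by 849 (control) and 964 (RCCS) and had a median of 0.06 on both. Its scale and centring are not stated, and it served as an alternative. The sources used here give no genome build for the array.

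Spots called outliers were left out (0 of the member spots) and repeated spots averaged as log2, and each array was divided by the 75th percentile over 41174 gene probes. Probes well above background on at least 50% of spots on both arrays counted as measured. Members keep the name in the file, and other genes were named through accessions (RefSeq, GRCm38.p6). Scripts ran in Python 3.11.15 with numpy 2.4.6, pandas 2.3.3, statsmodels 0.14.6 and limma 3.58.1 for normexp, and were tested on simulated data.

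All members are in the counts and medians; the values of 1 member and of 1 gene of a related list are not reported here. Described in full are the 12 with the largest absolute log2 ratio, those beyond 2-fold or above background on 1 array, and the 6 brightest; of each related list up to 4 with the largest absolute ratio are named. Members and lists were chosen with earlier results of these data known. The alternatives were 5 other scalings, normexp background correction (offset 50) with either scaling, the ratio table, 2 other probe filters, the brightest probe, outlier spots kept, and 1.5-fold and 3-fold thresholds. Using RefSeq probes alone was added after seeing the data. For a gene with 1 probe, the settings that only filter or choose probes can only repeat the reported value or give none. Keeping outlier spots changed no member, as 0 of the member spots were outliers.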

Additional observations from a re-analysis of the deposited data

How the results depend on the processing

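Each count of members beyond 2-fold was 1, so any single gene moves it. At least 2-fold higher were 2 members with spike-in scaling or with the brightest probe of a gene (Slc25a37 joins Slc25a35), 2 at a 1.5-fold threshold, and 0 with either normexp setting, without a filter on dim probes, or at a 3-fold threshold. At least 2-fold lower were 7 members at a 1.5-fold threshold, 2 in the deposited ratio table (Slc25a18 joins Slc25a34), and 0 with either normexp setting or with probes of RefSeq accessions only, which leave out the 1 probe of Slc25a34. The same leaving-out moved the orphan class, 2 genes, from a median of -0.17 relative to all genes to 1.25, the value of Slc25a35 alone. For the other moves the cause was not tested. The family median and the other class medians, relative to all genes, moved by less than the median 95% half-width of 0.40 under the 13 settings. No paired analysis was possible because each group has 1 array, and for the same reason no replicate could be left out. Dim probes limit Slc25a18, Slc25a27, Slc25a34, Slc25a35 and Slc25a36, each with a measured probe whose signal was under 100 on at least 1 array; Slc25a36 came to 0.15 without that probe.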
